A study of Mus musculus with 20 samples.

Results

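Whole bone marrow of Fancd2-/- mice was set against whole bone marrow of wild-type mice, both fed a placebo diet, by RNA sequencing of 1 combined library per genotype. These are 2 of the 20 libraries of the series, which asked how the androgen oxymetholone acts on blood-forming cells of Fancd2 knockout mice. Neither marrow library received the drug. All mice were male, of the 129S4 background and 4 months old, and they ate the placebo chow for 3 months from weaning. Each marrow library joined material from 5 mice, so differences between mice cannot be seen. The comparisons use 3 more kinds of libraries from the series. KSL cells (cKit+ Sca1+ Lin-, the sorted stem and progenitor fraction) came as 3 Fancd2-/- and 3 wild-type placebo libraries, each from 5 mice. Their statistical fit also drew its estimate of spread from the 6 KSL libraries of mice on 300 mg oxymetholone per kg of diet. Sorted wild-type erythroblasts (Ter119+/CD71high/FSChigh) came as 3 placebo libraries, 1 mouse each.

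Of 20377 gene symbols in the count table, 11819 had 100 or more counts in at least 1 of the 2 marrow libraries and were compared. A further 4451 symbols had between 1 and 99 counts, and 4107 had none in either library. At the threshold, 13 genes had exactly 100 counts in their higher library, with ratios between 0.507 and 1.29. The 10 genes just below it, with 99 counts, had ratios between 0.759 and 1.16. Over all 20377 symbols, the Fancd2-/- library held 106889478 counts and the wild-type library 100192495. KSL libraries held between 10777291 and 121347124 counts and placebo erythroblast libraries between 17177255 and 19999813.

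Fancd2 encodes a protein that, once monoubiquitinated together with its partner Fanci by the Fanconi core complex, directs the repair of DNA interstrand crosslinks. Loss of this pathway causes Fanconi anaemia, in which blood-forming stem cells fail. Whole marrow is a mixture dominated by maturing neutrophils, erythroid precursors and B lineage cells, with few T cells, macrophages, stromal cells and stem cells. For a gene active in a subset of cells, fewer cells of that type and less RNA per cell cannot be told apart here.

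With 1 library per genotype there is no replicate check and no test. Every value is given as counts, in CPM (counts per 1000000, scaled by trimmed mean of M values over the 2 libraries) or as the ratio of Fancd2-/- over wild type. The interval beside a ratio is the exact 95% interval from the 2 counts; it covers counting error only, not variation between mice or libraries. At this depth that interval excluded 1 for 5596 of the 11819 genes (47.3%), so it does not separate genes by size of difference. Genes are described by whether the ratio passed 1.5-fold or 2-fold.

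The 2 marrow libraries were close to each other. The ratio lay between 0.858 and 1.20 for the central 90% of genes, with a median of 1.0. It reached 2 or more in 15 genes (0.127%) and 0.5 or less in 24 genes (0.203%). It reached 1.5 or more in 95 genes (0.804%) and 1/1.5 or less in 72 genes (0.609%). The largest groups among the 72 lower genes were interferon-response genes (14 genes), replication-dependent histones (5), integrated stress response genes (4) and MHC class I genes (3). Among the 95 higher genes the largest group was T cell genes (10 genes), followed by mature B cell and dendritic cell genes (3 each). Of these past 1.5-fold, 28 lower and 24 higher genes were in any list used here. Over all compared genes, 1.41% were past 1.5-fold in either direction, so a short list with none past it is not unusual here. For scale, 2 libraries of the same group elsewhere in the series differed past 1.5-fold for a larger share of genes than the marrow pair's 1.41% in 8 of 9 pairs. Pairs of wild-type erythroblast libraries differed that far for 1.36% to 3.79% of genes, and pairs of wild-type KSL libraries for 5.11% to 7.52%. Most of these libraries are shallower, and all come from other cells, so the shares only describe the size of spread seen between replicates in this series. Replicate 3 of the Fancd2-/- KSL libraries stands apart from the others of its group. The pairs that include it differed past 1.5-fold for 19% and 27.3% of genes, against 3.24% for the remaining pair.

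**Figure D1:**
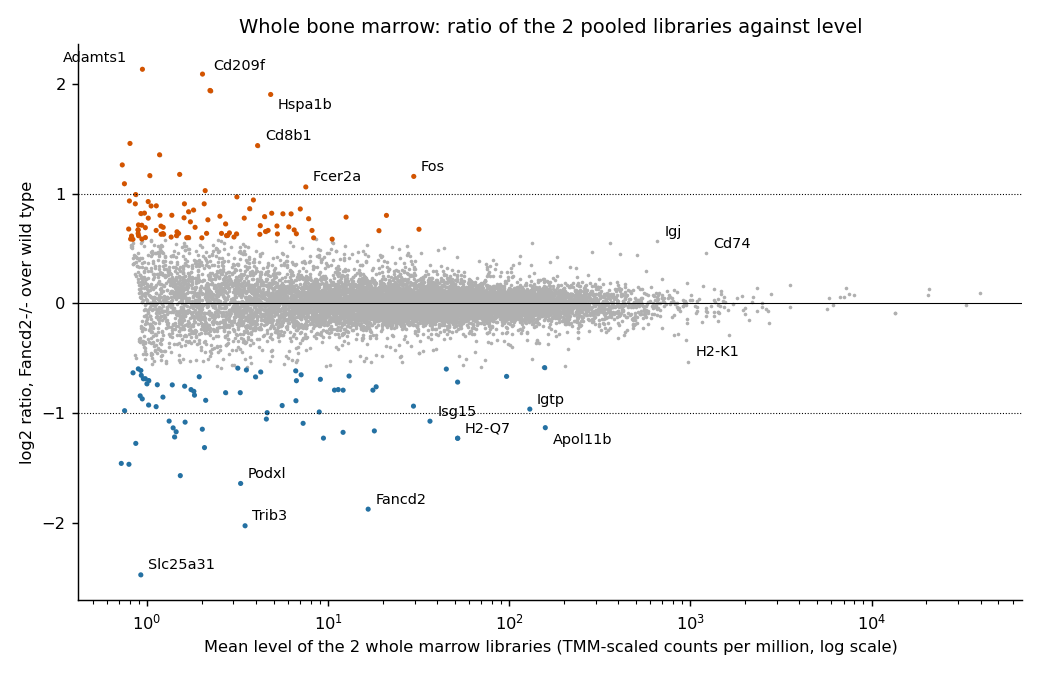
Ratio of Fancd2-/- over wild type (log2, vertical axis) against the mean level of the 2 whole marrow libraries (CPM, log scale) for 11819 genes. Orange points are the 95 genes higher by 1.5-fold or more, blue points the 72 lower genes and dotted lines mark 2-fold; most coloured points sit at low levels, while Fancd2, Igtp and Apol11b are lower at levels above 10 CPM.

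Fancd2 RNA was much lower in the library labelled Fancd2-/-, though part of the signal remained. The transcript NM_001033244 on chromosome 6 (113481675 to 113546279, mm9) had 759 counts in Fancd2-/- marrow, against 2621 counts in wild-type marrow. This is 7.11 CPM in Fancd2-/- marrow and 26.1 CPM in wild-type marrow, a ratio of 0.272 (0.251 to 0.295). Which exons the allele removes is not given in the sources used here, so the remaining reads cannot be assigned to intact or deleted parts of the transcript. In KSL cells, Fancd2 averaged 7.77 ± 0.658 CPM in Fancd2-/- and 19.1 ± 2.99 CPM in wild-type libraries (SD, n = 3 each). There the log2 change was -1.30 ± 0.18 (SE), with an adjusted p of 0.00514 by edgeR's quasi-likelihood test. That call was lost when only the 6 placebo libraries were fitted (adjusted p = 0.0507). Fancd2 lies among 21 compared genes within 1 Mb on each side, whose ratios ran from 0.444 to 1.14. Of these, 4931417G12Rik, at 0.444, was the only one past 1.5-fold. It starts at 113546755 (mm9), just past the end of Fancd2 at 113546279. Whether these neighbours share reads was not tested.

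The other Fanconi genes had ratios close to 1. Of 21 measured members of the core complex, the Fancd2-Fanci pair and their downstream partners, Fancd2 was the only one past 1.5-fold. Fanci, the partner of Fancd2, had 60.7 CPM in Fancd2-/- marrow and 58.2 CPM in wild-type marrow. Fanca, a core complex subunit, had 37.4 CPM in Fancd2-/- marrow and 39.2 CPM in wild-type marrow. Usp1, the enzyme that removes ubiquitin from Fancd2, had 126 CPM in Fancd2-/- marrow and 126 CPM in wild-type marrow. The remaining members lay between ratios of 0.886 (Palb2) and 1.03 (Fancf). None of 44 genes of crosslink and double-strand break repair passed 1.5-fold, against 1.41% of all compared genes. Their median log2 ratio was -0.02, with ratios of 0.889 to 1.10.

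Genes of the interferon response formed the largest group that was lower in Fancd2-/- marrow. Interferons bind cell surface receptors and, through factors such as Stat2 and Irf9, switch on genes whose promoters often hold an interferon-stimulated response element. Of 51 listed genes, 49 had 100 or more counts, and 44 of these had a ratio below 1. By 1.5-fold or more, 14 were lower and none higher, against 0.609% of all compared genes lower and 0.804% higher. The median log2 ratio was -0.33, against 0.00 for all genes, and the summed level was 2253 CPM in Fancd2-/- marrow and 2862 CPM in wild-type marrow. The list shares 2 genes with the MHC class I list below, and without them the median was also -0.33.

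Promoter windows around this element are shown for 6 of the lower genes whose RefSeq promoter (GRCm38.p6, 250 bases before to 50 after the start site) holds it upstream of the start. Capitals mark each match, which is GAAA, any 2 bases and GAAA again on either strand, so that TTTC, any 2 bases and TTTC is the element on the opposite strand. Overlapping matches run together.
Apol11b (chr15:77643302-77643361, minus strand): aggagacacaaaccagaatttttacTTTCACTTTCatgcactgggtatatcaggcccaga
Gm12250 (chr11:58183727-58183786, plus strand): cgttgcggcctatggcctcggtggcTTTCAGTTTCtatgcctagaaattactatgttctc
Irgm2 (chr11:58214888-58214947, plus strand): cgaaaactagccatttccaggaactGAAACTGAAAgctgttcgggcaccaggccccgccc
Isg15 (chr4:156200862-156200921, minus strand): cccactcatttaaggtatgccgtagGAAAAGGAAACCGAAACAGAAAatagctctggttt
Oas3 (chr5:120777700-120777759, minus strand): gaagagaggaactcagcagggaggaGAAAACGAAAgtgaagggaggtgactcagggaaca
Tgtp2 (chr11:49064248-49064307, minus strand): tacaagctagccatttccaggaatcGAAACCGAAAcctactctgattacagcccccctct
The same letters were found in 1079 of 27025 promoters of the RefSeq table (3.99%) and in 351 of 9483 promoters of compared genes (3.70%). Among the 72 lower genes, 54 had a promoter in the table and 17 of those held the element. Of the 14 lower interferon-response genes, 10 had a promoter in the table and 9 held the element. Of all 49 compared interferon-response genes, 35 had a promoter and 23 held it, and of the 95 higher genes, 70 had a promoter and 3 held it. Fewer than 80% of the genes of each of these sets could be matched, so their shares are given as counts and are not compared. A match is a run of letters in this window, not evidence of binding.

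The most abundant lower members belonged to the immunity-related GTPases, which attack the vacuoles of intracellular pathogens. Igtp (NM_018738, chromosome 11, 58013057 to 58021094, mm9) had 9385 counts in Fancd2-/- marrow, against 17205 counts in wild-type marrow. Its level was 87.9 CPM in Fancd2-/- marrow and 172 CPM in wild-type marrow, a ratio of 0.513 (0.50 to 0.526). Irgm2 had 74.6 CPM in Fancd2-/- and 118 CPM in wild-type marrow (ratio 0.630, 0.613 to 0.649). Other genes of this family were lower too. Irgm1 had a ratio of 0.660, Iigp1 of 0.451, Gm12250 of 0.442 and Tgtp2, with 82 counts in Fancd2-/- and 229 in wild-type marrow, of 0.336. Tgtp2 has a near-identical copy, Tgtp1, and how reads were shared between them is not given, so its own ratio is uncertain.

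Antiviral effectors were lower to a similar degree. Isg15, a ubiquitin-like modifier, had 23.5 CPM in Fancd2-/- and 49.4 CPM in wild-type marrow (ratio 0.475, 0.452 to 0.498). Oas3 had 39.2 CPM in Fancd2-/- and 64.4 CPM in wild-type marrow (ratio 0.608), while its relatives Oas1a and Oas2, which like it sense double-stranded RNA, had ratios of 0.503 and 0.578. Ifit1, which encodes a protein that binds viral RNA, had a ratio of 0.540 (0.483 to 0.604), and its relative Ifit3 had 0.481 (0.419 to 0.552). Rtp4 (0.590), Zbp1 (0.614), Gbp2 (0.580) and Oasl2 (0.569) complete the 14.

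Other factors of the response stood nearer to 1. Irf9 had 87.8 CPM in Fancd2-/- and 114 CPM in wild-type marrow (ratio 0.768), Irf7 had a ratio of 0.671 and Stat2 of 0.95. Rsad2, the most abundant member, had 464 CPM in Fancd2-/- and 529 CPM in wild-type marrow (ratio 0.877). Not all targets were lower. Ifit2 had a ratio of 0.997, Mx1 of 1.05, Slfn1 of 1.09 and Slfn5 of 1.12. The interferon receptor genes Ifnar1 and Ifngr1, outside the list, had ratios of 1.02 and 1.15.

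Several further lower genes are not in the list. Apol11b (NM_001143686, chromosome 15), an apolipoprotein L gene, had 10561 counts in Fancd2-/- and 21772 counts in wild-type marrow, a ratio of 0.456 (0.445 to 0.467). Its neighbour Apol11a had 601 counts in Fancd2-/- and 1324 in wild-type marrow (ratio 0.427), and both have the promoter window shown for Apol11b. Because the copies are so alike, their reads could be divided between them in ways that the sources used here do not state. Gbp1 and Gbp5 (ratios 0.578 and 0.592), the Ifit3-like gene I830012O16Rik (0.402, 0.324 to 0.496) and Parp12 (0.653) were also past 1.5-fold lower.

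Of the lower genes in the interferon list, Isg15 and Irgm2 were high in sorted erythroblasts. Gbp2, Iigp1, Oas1a, Oasl2 and Rtp4 were high in sorted KSL cells. The other genes named in this paragraph are outside that list. Among genes above 20 CPM and at least 8-fold higher in wild-type erythroblasts than in wild-type KSL cells, 10 of 930 were past 1.5-fold in marrow (1.08%), against 1.41% of all compared genes. Of these, 9 were lower: Apol11b, Apol11a, Isg15, Irgm2, Atf5, Nacad, Syt14, Zfp146 and Fancd2. Among genes at least 8-fold higher in KSL cells than in erythroblasts, 19 of 1556 were past 1.5-fold (1.22%) and 16 of these were lower, among them Gbp1, Gbp2, Gm12250, Iigp1, Oas1a, Oasl2, Rtp4, Nlrc5, H2-Q6, H2-Q7 and H2-Q9. Apol11b averaged 2064 CPM in wild-type erythroblasts and 0.0765 CPM in wild-type KSL cells, on a scale set over all 20 libraries. Gbp2 averaged 1.12 CPM in wild-type erythroblasts and 94.2 CPM in wild-type KSL cells on that scale. These 2 sets as a whole were near 1 in marrow. The median log2 ratio was -0.06 for 930 compared erythroblast-high genes and 0.03 for 1556 KSL-high genes. Counting both directions, neither set held a larger share of genes past 1.5-fold than all genes. Each held a larger share of lower genes: 0.968% of erythroblast-high and 1.03% of KSL-high genes, against 0.609% of all compared genes.

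MHC class I genes, many of them interferon targets, were lower as well. These genes load peptides from the cytosol onto surface molecules read by CD8 T cells. Of 21 genes, 19 had ratios below 1 and 3 were lower by 1.5-fold or more, against 0.609% of all compared genes. The median log2 ratio was -0.26, and the summed level was 5222 CPM in Fancd2-/- and 6352 CPM in wild-type marrow. H2-Q7 (NM_001198560, chromosome 17) had 3306 counts in Fancd2-/- and 7289 in wild-type marrow, a ratio of 0.426 (0.409 to 0.444). H2-Q9 is listed with the same counts as H2-Q7 in both marrow libraries, so these 2 genes are 1 measurement and count as 2 among the lower genes above. H2-Q6 had 11.1 CPM in Fancd2-/- and 24.9 CPM in wild-type marrow (ratio 0.446), and H2-Q8, outside the list, had 0.501. Nlrc5, the transactivator of class I genes, had 10.1 CPM in Fancd2-/- and 16.0 CPM in wild-type marrow (ratio 0.632). The classical gene H2-K1 had 84643 counts in Fancd2-/- and 114981 in wild-type marrow (ratio 0.692), the peptide transporter Tap1 a ratio of 0.670, and B2m, the light chain, 0.823. Calr, Canx and Pdia3, general folding proteins in this list, lay between 0.966 and 1.10.

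H2-Q6 was also lower in KSL cells of the same genotypes and diet. It averaged 55.2 ± 1.33 CPM in Fancd2-/- and 102 ± 7.90 CPM in wild-type KSL libraries (SD, n = 3 each), a log2 change of -0.90 with an adjusted p of 0.0204 (edgeR). That call was lost in 5 of 6 fits that left out 1 placebo library, with adjusted p between 0.0336 and 0.0983. The interferon list did not show calls there. Of 49 interferon-response genes tested in KSL cells, edgeR called 0 and DESeq2 called 0, against 1.28% of all genes called by edgeR, and the median log2 change was -0.13. At an unadjusted p under 0.05, 3 of the 49 were lower and 0 higher, against 9.82% of all tested genes lower and 9.77% higher.

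Genes of the integrated stress response, which Atf4 switches on when amino acids run short or protein synthesis is disturbed, were also lower. Of 21 compared genes, 17 had ratios below 1 and 4 were lower by 1.5-fold or more, against 0.609% of all compared genes. The median log2 ratio was -0.27. Trib3 (NM_175093, chromosome 2), a pseudokinase that restrains this response, had 146 counts in Fancd2-/- and 560 in wild-type marrow, a ratio of 0.245 (0.203 to 0.294). Chac1, which breaks down glutathione, had 4.64 CPM in Fancd2-/- and 9.90 CPM in wild-type marrow (ratio 0.468). Atf5, a relative of Atf4, had 20.3 CPM in Fancd2-/- and 38.8 CPM in wild-type marrow (ratio 0.522). The serine and one-carbon enzymes were lower by less. Shmt2 had 125 CPM in Fancd2-/- and 188 CPM in wild-type marrow (ratio 0.666), Mthfd2 a ratio of 0.705 and Phgdh of 0.693. The amino acid transporter Slc7a5 had a ratio of 0.675 and the amino acid enzyme Asns of 0.772. Atf4 itself had 321 CPM in Fancd2-/- and 379 CPM in wild-type marrow (ratio 0.847), and Ddit3 had 0.827. Slc7a11, Atf3, Herpud1 and Cebpb had ratios above 1, up to 1.17. In KSL cells edgeR called 0 of 22 tested genes of this list, with 2 higher and 1 lower at an unadjusted p under 0.05. DESeq2 called 2 higher, against 3.55% of all genes higher and 2.59% lower. Trib3 there averaged 28.4 ± 1.11 CPM in Fancd2-/- and 36.9 ± 6.85 CPM in wild-type libraries (SD, n = 3 each; adjusted p = 0.224, edgeR).

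**Figure D2:**
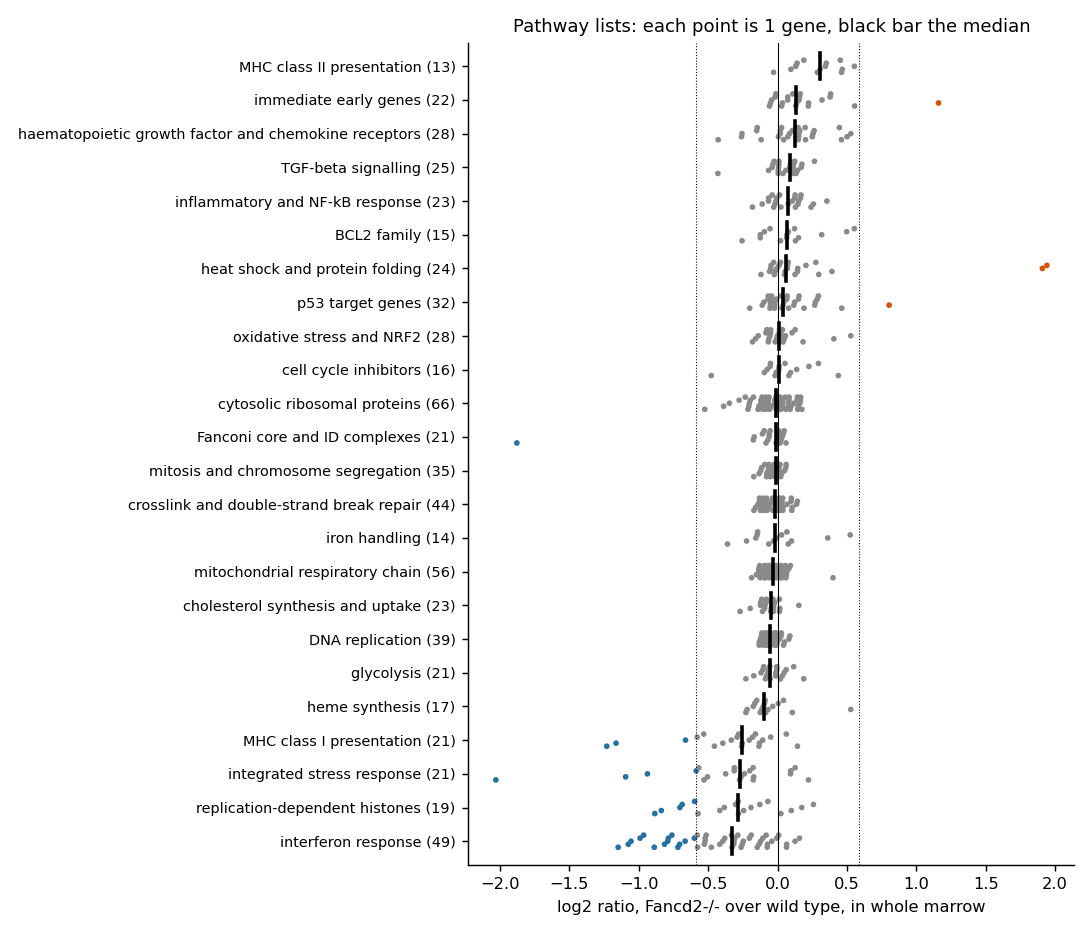
Log2 ratio of Fancd2-/- over wild type in whole marrow for the genes of 24 pathway lists, 1 point per gene with 100 or more counts (number in brackets), ordered by their median (black bar). Dotted lines mark 1.5-fold; the interferon, MHC class I, stress response and histone lists hold all blue points but Fancd2, and the MHC class II list has the highest median, 0.31.

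Replication-dependent histones had a median log2 ratio of -0.28 over 19 compared genes. Of these, 5 were lower by 1.5-fold or more, against 0.609% of all compared genes. All 5 had fewer than 300 counts, such as Hist1h1b with 158 counts in Fancd2-/- and 274 in wild-type marrow. The abundant Hist1h1c had a ratio of 1.02, and the median of the list moved to 0.02 under a higher count minimum (given with the other alternatives). These messages mostly lack a poly(A) tail, and the libraries were made from poly(A)-selected RNA; the part of this in the values was not tested.

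Among cell lineages, T cell genes stood highest in Fancd2-/- marrow. Of 25 compared T cell genes, 24 had ratios above 1. By 1.5-fold or more, 10 were higher and none lower, against 0.804% of all compared genes higher and 0.609% lower. The median log2 ratio was 0.44, and the summed level was 380 CPM in Fancd2-/- and 288 CPM in wild-type marrow. Cd8b1 (NM_009858, chromosome 6, 71272805 to 71287445, mm9), the beta chain of the CD8 coreceptor of cytotoxic T cells, had 636 counts in Fancd2-/- and 220 in wild-type marrow. Its ratio was 2.72 (2.33 to 3.18), and the alpha chain gene Cd8a had 1.96 (1.66 to 2.32). Components of the T cell receptor complex varied: Cd3g had a ratio of 1.93, Cd3e of 1.55 and Cd3d of 1.17. Cd4, the coreceptor of helper T cells, had 6.78 CPM in Fancd2-/- and 5.03 CPM in wild-type marrow (ratio 1.35). Transcription factors of the T lineage were higher, Tcf7 with 15.9 CPM in Fancd2-/- and 9.20 CPM in wild-type marrow (ratio 1.73) and Bcl11b with a ratio of 1.77. Ctla4 (1.85), Cd6 (1.59), Gimap3 (1.6) and Cd5 (1.58) complete the 10. Lef1 (0.991), Lck (1.09) and Zap70 (1.12) stood near 1. Other lymphocytes also express them, and the part of this in their ratios was not tested. All of these T cell genes are low in whole marrow, at most 50.4 CPM in Fancd2-/- and 40.2 CPM in wild-type marrow for Gimap6.

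Natural killer cell genes were close to 1 as a list. Of 20 compared genes none passed 1.5-fold, against 1.41% of all compared genes, and the median log2 ratio was 0.03. The granzymes Gzma and Gzmb had ratios of 0.677 and 0.670, while Klrd1 had 1.18 and Nkg7, the most abundant, 1.06.

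**Figure D3:**
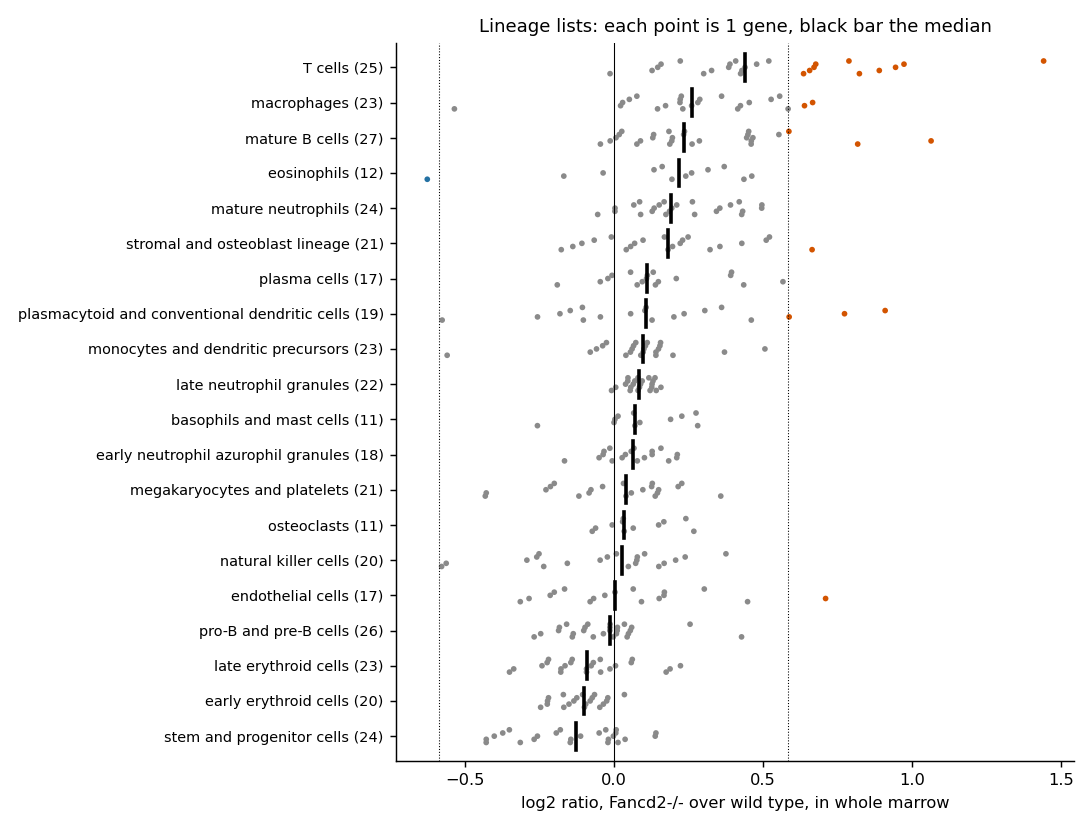
Log2 ratio of Fancd2-/- over wild type in whole marrow for the genes of 20 lineage lists, 1 point per gene with 100 or more counts (number in brackets), ordered by their median (black bar). Dotted lines mark 1.5-fold; T cell genes have the highest median, 0.44, and stem and progenitor cell genes the lowest, -0.13.

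Within the B lineage, late genes were higher and early genes were close to 1. Of 27 mature B cell genes, 25 had ratios above 1, with a median log2 ratio of 0.23. By 1.5-fold or more, 3 were higher, against 0.804% of all compared genes. Fcer2a, the low-affinity IgE receptor CD23 of follicular B cells, had 10.2 CPM in Fancd2-/- and 4.86 CPM in wild-type marrow (ratio 2.09, 1.88 to 2.33). Cr2, the complement receptor CD21, had 7.96 CPM in Fancd2-/- and 4.52 CPM in wild-type marrow (ratio 1.76), and Cd83 had a ratio of 1.5. Without the 5 members that are also MHC class II genes, 20 of 22 ratios were above 1, the median was 0.19, and the summed level was 2309 CPM in Fancd2-/- and 2155 CPM in wild-type marrow. Chemokine receptors that guide recirculating lymphocytes were higher by less, Ccr7 with a ratio of 1.36 and Cxcr5 with 1.38. Cd79a, part of the B cell receptor and already expressed in early B cells, had 1.01, and Ms4a1, which encodes CD20, had 1.14. The 26 genes of pro-B and pre-B cells had a median log2 ratio of -0.01, with none past 1.5-fold, against 1.41% of all compared genes. Among 17 plasma cell genes the most different was Igj, the joining chain of secreted antibodies, with 83635 counts in Fancd2-/- and 53031 in wild-type marrow (ratio 1.48, 1.47 to 1.5). Other plasma cell genes stood lower, with 1.31 for Prdm1, 1.11 for Xbp1 and 0.969 for Sdc1.

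MHC class II genes, which B cells, dendritic cells and macrophages use to present antigen to CD4 T cells, had ratios above 1 in most of the list, each under 1.5. Of 13 listed genes, 12 had ratios above 1, with a median log2 ratio of 0.31 and a summed level of 3242 CPM in Fancd2-/- and 2461 CPM in wild-type marrow. H2-Aa (NM_010378, chromosome 17) had 430 CPM in Fancd2-/- and 293 CPM in wild-type marrow (ratio 1.47, 1.45 to 1.49). H2-Ab1 had a ratio of 1.37, H2-Eb1 of 1.38 and the invariant chain Cd74, with 150520 counts in Fancd2-/- and 102728 in wild-type marrow, of 1.38. Ciita, the transactivator of these genes, had a ratio of 1.22. Outside the list, the class II gene H2-Eb2 had 288 counts in Fancd2-/- and 144 in wild-type marrow (ratio 1.88, 1.53 to 2.31). In KSL cells H2-Eb1 fell, averaging 104 ± 16.7 CPM in Fancd2-/- and 233 ± 98.6 CPM in wild-type libraries (SD, n = 3 each). The log2 change there was -1.18 with an adjusted p of 0.0473 (edgeR), and it was lost in 5 of 6 fits that left out 1 placebo library, with adjusted p of 0.0146 to 0.216. The mature B cell list without its 5 class II members had a median log2 ratio of 0.19, against 0.31 for the class II list. MHC class II genes are strongly expressed by B cells and dendritic cells. The part of these cells in the result was not tested.

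Macrophage genes had a median log2 ratio of 0.26 over 23 compared genes, of which 22 had ratios above 1. Cd5l, secreted by tissue macrophages, had 5.71 CPM in Fancd2-/- and 3.60 CPM in wild-type marrow (ratio 1.59), and Mertk, a receptor for dying cells, had a ratio of 1.56. Other macrophage genes did not reach 1.5-fold, with 1.44 for Hmox1, which degrades heme, 1.47 for Fcna, 1.22 for C1qa and 1.17 for Vcam1. Among C-type lectin genes of the Cd209 family, 3 of 6 had 100 or more counts, and all 3 were past 1.5-fold higher. Cd209f (NM_026956, chromosome 8, 4102792 to 4105764, mm9) had 350 counts in Fancd2-/- and 77 in wild-type marrow, a ratio of 4.27 (3.33 to 5.54). Cd209a and Cd209d had ratios of 1.88 and 1.71. Cd209b, Cd209c and Cd209e had at most 68 counts in Fancd2-/- and 36 in wild-type marrow and were not compared. Monocyte genes were close to 1, with a median log2 ratio of 0.10; Ccr2 had 1.05 and Csf1r 1.08, and Cx3cr1, the fractalkine receptor, had 51.4 CPM in Fancd2-/- and 36.2 CPM in wild-type marrow (ratio 1.42). Dendritic cell genes were mixed, with 3 of 19 higher by 1.5-fold or more, against 0.804% of all compared genes. These were Cd209a and Cd209d, given above, and Klk1, with 104 counts in Fancd2-/- and 65 in wild-type marrow. Siglech, which marks plasmacytoid dendritic cells, had a ratio of 1.24, and Batf3 1.28.

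The most abundant lineages, neutrophils and erythroid cells, differed little. Late neutrophil granule genes summed to 130237 CPM in Fancd2-/- and 121753 CPM in wild-type marrow, and their median log2 ratio was 0.08. S100a8 had a ratio of 1.10, Ltf 1.06 and Camp 1.06. Genes of the mature neutrophil had a median of 0.19, with 23 of 24 ratios above 1 and none past 1.5-fold. Cxcr2, the receptor that draws neutrophils out of marrow, had 295 CPM in Fancd2-/- and 246 CPM in wild-type marrow (ratio 1.20), and Il1b had 1.28. Azurophil granule genes of early neutrophils had a median of 0.06, with Mpo at 0.978 and Elane at 1.02. In eosinophils, the granule proteins Prg2 and Epx had ratios of 1.35 and 1.38, and Ptger3, a prostaglandin receptor in the same list, had 0.648.

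Erythroid genes were slightly lower. Late erythroid genes summed to 54169 CPM in Fancd2-/- and 56109 CPM in wild-type marrow, with a median log2 ratio of -0.09 and none past 1.5-fold. Slc4a1, the anion exchanger of red cells, had a ratio of 0.884, Alas2, the first enzyme of erythroid heme synthesis, 1.0 and Hba-a1 0.939. Hba-a1 is listed with the same counts as Hba-a2 in every library, so they are 1 measurement. It enters the late erythroid sum and median above as 2 genes. Early erythroid genes had a median of -0.10, with 19 of 20 ratios below 1, and the erythropoietin receptor gene Epor had 0.901. Megakaryocyte genes had a median of 0.04.

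Genes of stem and progenitor cells had the lowest median of any lineage, -0.13, with 18 of 24 ratios below 1 and none past 1.5-fold. Meis1, a transcription factor of stem cells, had 2.52 CPM in Fancd2-/- and 3.39 CPM in wild-type marrow (ratio 0.743, 0.631 to 0.875). Kit, the stem cell factor receptor, had a ratio of 0.837 and Flt3 had 0.904, while Cd34 and Cd48 had 0.988 and 1.03. These cells are rare in marrow and many of the genes are shared with megakaryocytes or mast cells. The most abundant members, Lmo2 and Tal1, were also high in erythroid cells. They averaged 1651 and 3872 CPM in wild-type erythroblasts and 1207 and 217 CPM in wild-type KSL cells, scaled over all 20 libraries. The part of these other cells in the median was not tested.

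Among stromal genes, Ibsp, a bone matrix protein of osteoblasts, had 23.4 CPM in Fancd2-/- and 14.7 CPM in wild-type marrow (ratio 1.59, 1.49 to 1.69). Col1a1, a bone collagen, had a ratio of 1.43, Adipoq, made by fat cells, had 1.44, and the niche chemokine Cxcl12 had 1.25. The list's median log2 ratio was 0.18, with 16 of 21 ratios above 1. Endothelial genes had a median of 0.00; Fabp4, a fatty acid carrier shared with fat cells and macrophages, was the only one of 17 past 1.5-fold, with a ratio of 1.64, and Cdh5, the cadherin that defines endothelium, had 0.947. Spp1, which encodes osteopontin and is named in the title of the series, had 19 CPM in Fancd2-/- and 14.1 CPM in wild-type marrow (ratio 1.35, 1.26 to 1.44). In placebo KSL cells Spp1 averaged 195 ± 314 CPM in Fancd2-/- and 15.4 ± 15.9 CPM in wild-type libraries (SD, n = 3 each; adjusted p = 0.211, edgeR), and the SD exceeded the mean in both genotypes. The Fancd2-/- libraries had 13.4, 13.9 and 558 CPM, so the mean rests on replicate 3. Without it, Fancd2-/- libraries averaged 13.6 CPM, against 15.4 CPM in wild-type libraries.

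Genes that respond quickly to stress or growth signals were among the highest ratios. Hspa1b (NM_010478, chromosome 17, 35093373 to 35096183, mm9) and Hspa1a, a pair of near-identical genes for the inducible chaperone Hsp70, had ratios of 3.75 (3.21 to 4.40) and 3.84 (3.05 to 4.87). Their levels were 7.60 and 3.56 CPM in Fancd2-/- marrow, against 2.02 and 0.927 CPM in wild-type marrow. Reads of the pair may have been divided between them. Other chaperones were much closer to 1, with 1.31 for Hsph1, 1.21 for Dnaja1 and 1.11 for Dnajb1. In this list 2 of 24 genes passed 1.5-fold, against 1.41% of all compared genes. Fos, part of the AP-1 factor, had 41.0 CPM in Fancd2-/- and 18.3 CPM in wild-type marrow (ratio 2.23, 2.12 to 2.36). Dusp1, a phosphatase of MAP kinases, had 159 CPM in Fancd2-/- and 108 CPM in wild-type marrow (ratio 1.47), while Jun had 1.25, Egr1 1.30 and Ier2 0.971. Of 22 immediate early genes, Fos was the only one past 1.5-fold. The clock gene Per1 had 47.2 CPM in Fancd2-/- and 33.6 CPM in wild-type marrow (ratio 1.40).

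Most other genes with the highest ratios were below 4 CPM. Adamts1, a matrix protease, had 164 counts in Fancd2-/- and 35 in wild-type marrow (ratio 4.40, 3.04 to 6.54). Cyr61, a matricellular protein gene, had 377 counts in Fancd2-/- and 92 in wild-type marrow (ratio 3.85). Pla2g2d (2.75), Tmod4 (2.56), Col17a1 (2.40) and Col8a1 (2.26) had between 110 and 224 counts in Fancd2-/- marrow and between 43 and 93 in wild-type marrow. Cgnl1 (2.25), Bmp2 (2.13) and Folr4 (2.04) complete the 15 genes past 2-fold. On the lower side, Slc25a31, a mitochondrial ADP/ATP carrier mainly of testis, had 30 counts in Fancd2-/- and 157 in wild-type marrow (ratio 0.180, 0.117 to 0.267). Podxl, a sialomucin of stem cells, podocytes and endothelium, had 170 counts in Fancd2-/- and 499 in wild-type marrow (ratio 0.320, 0.267 to 0.382). Ces1d, Vcan, Tnni1, Hist4h4, Ly6i and Dcbld1, with ratios of 0.361 to 0.475, were the remaining lower genes past 2-fold not described above, all at or below 221 counts in the wild-type library. In KSL cells Podxl averaged 20.6 ± 4.22 CPM in Fancd2-/- and 16.6 ± 2.11 CPM in wild-type libraries (SD, n = 3 each; adjusted p = 0.349, edgeR).

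**Figure D4:**
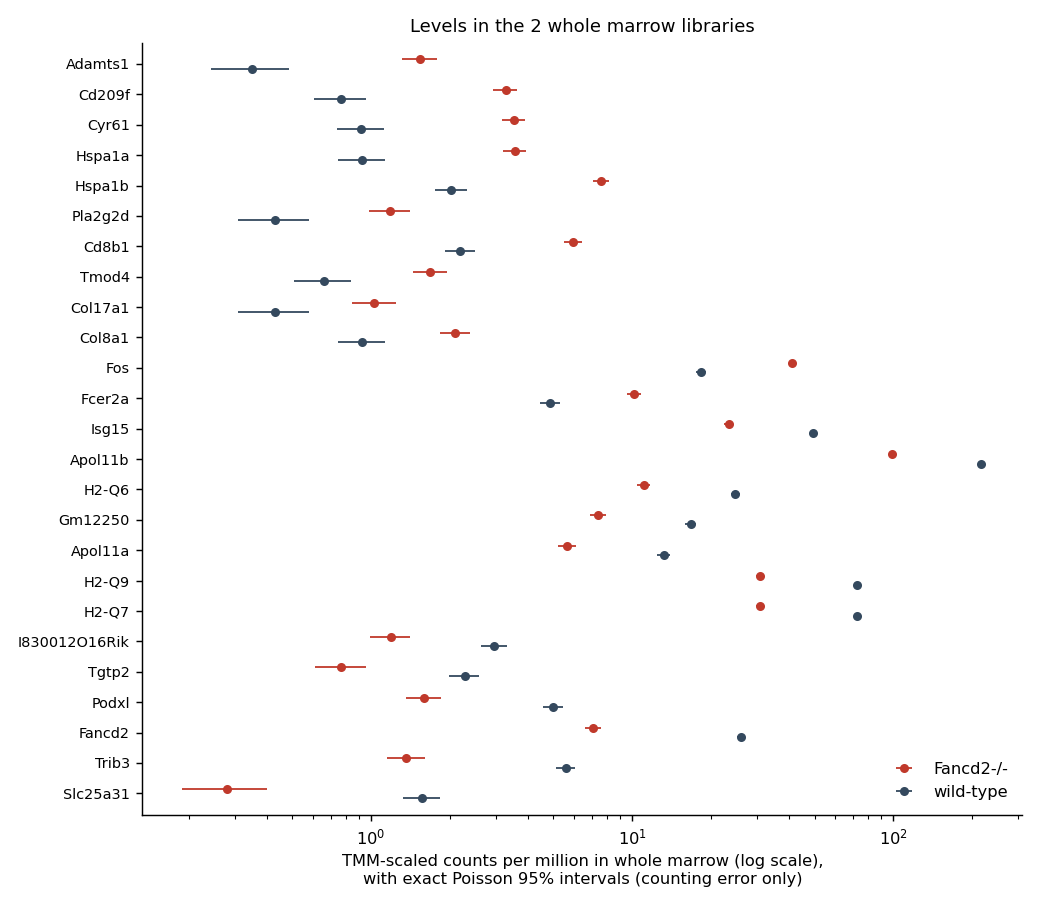
Level in CPM (log scale) of Fancd2 and of the 12 most different genes in each direction in the Fancd2-/- (red) and wild-type (dark blue) whole marrow libraries, ordered by ratio. Bars are exact Poisson 95% intervals of each count, and those of the 2 libraries do not overlap for any gene shown. Apart from Fancd2, genes were chosen by how far the interval of their ratio lay from equality, so this is no separate result. Adamts1 and Slc25a31 are the highest and lowest ratios.

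Proliferation genes had ratios close to 1 in whole marrow. Of 35 genes of mitosis and chromosome segregation, all lay between ratios of 0.888 and 1.04, with a median log2 ratio of -0.01. Ccnb1, the cyclin that starts mitosis, had 61.9 CPM in Fancd2-/- and 61.1 CPM in wild-type marrow, and Top2a, which untangles chromosomes, had 681 CPM in Fancd2-/- and 679 CPM in wild-type marrow. The 39 DNA replication genes had a median of -0.05. In KSL cells of the same diet, 16 of these 35 mitosis genes rose in Fancd2-/- mice, with 0.505% of all genes called higher and a median log2 change of 0.71 for the list. There Ccnb1 rose by 1.07 on the log2 scale (adjusted p = 0.0109, edgeR). The count of mitosis genes called was 3 without wild-type replicate 1 and 22 without Fancd2-/- replicate 1, the lowest and highest when 1 placebo library was left out. It was 0 with only the 6 placebo libraries; at an unadjusted p under 0.05 that fit had 33 of the 35 higher, against 8.83% of all genes. With DESeq2 it was 30, against 3.55% of all genes called higher. Whether the marrow and KSL values differ was not tested, as marrow had 1 library per genotype.

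Targets of p53, the factor that halts or kills cells with damaged DNA, were near 1 with exceptions. Of 32 compared genes, Ddit4, an inhibitor of mTOR also induced by other stresses, was the only one past 1.5-fold, with 26.7 CPM in Fancd2-/- and 15.3 CPM in wild-type marrow (ratio 1.75). Cdkn1a, the cell cycle inhibitor p21, had 43.3 CPM in Fancd2-/- and 35.3 CPM in wild-type marrow (ratio 1.23), Zmat3 had 1.38, Phlda3 1.20 and Fas 1.22. Mdm2 and Bax had 1.06 and 1.05, and the list's median log2 ratio was 0.04. Among cell cycle inhibitors Txnip had a ratio of 1.36 and Foxo3 of 0.718. Cytosolic ribosomal proteins, the mitochondrial respiratory chain, glycolysis, cholesterol synthesis and the oxidative stress response had medians between -0.05 and 0.01, with no gene past 1.5-fold. The inflammatory, TGF-beta and BCL2 family lists had medians of 0.08, 0.09 and 0.07, also with none past 1.5-fold. Among blood growth factor and chemokine receptors 22 of 28 ratios were above 1, with a median of 0.13; S1pr1, which lets lymphocytes leave tissues, had 1.42.

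**Figure D5:**
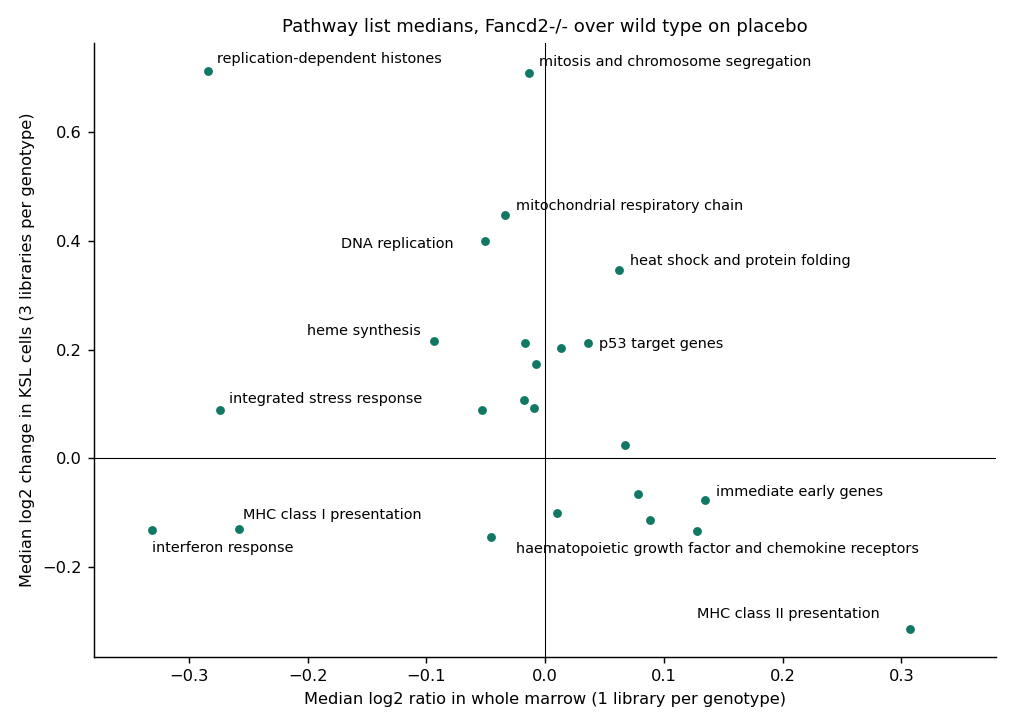
Median log2 ratio of Fancd2-/- over wild type in whole marrow (horizontal axis) against the median log2 change in KSL cells on placebo (vertical axis), 1 point per pathway list. The mitosis list sits at -0.01 in marrow and 0.71 in KSL cells, and the MHC class II list at 0.31 in marrow and -0.31 in KSL cells.

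By edgeR's adjusted p, Fancd2 and H2-Q6 were the only genes past 1.5-fold in marrow that were called in KSL cells. Of the 72 lower marrow genes, 62 were tested in KSL cells, and edgeR called Fancd2 and H2-Q6 lower and 0 higher, against a background of 0.777% called lower. At an unadjusted p under 0.05, 16 of the 62 were lower and 3 higher, against 9.82% of all tested genes lower and 9.77% higher. DESeq2 called 3 of the 62 lower and 1 higher, against 2.59% of all genes lower and 3.55% higher. Of the 95 higher marrow genes, 63 were tested and edgeR called 0 in either direction. At an unadjusted p under 0.05, 7 of the 63 were higher and 4 lower, and DESeq2 called 1, lower, against the same shares of all genes. Of the 170 genes called in KSL cells (1.28% of 13259), 135 had enough counts in marrow. Among those 135, Fancd2 and H2-Q6 were the only ones past 1.5-fold there, against 1.41% of all genes compared in marrow. Without Fancd2-/- replicate 3, the KSL library that stands apart, 6 mitosis genes were called, and 17 genes were called higher and 59 lower in KSL cells, against 67 higher and 103 lower with it.

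Both marrow libraries matched their labels in what could be checked. Y-linked transcripts were present at ratios of 1.02 to 1.10. Defining markers of every marrow lineage examined were detected in both libraries. They ranged from S100a8, with 2321682 counts in Fancd2-/- and 1991337 in wild-type marrow, to low genes such as Cdh5 of endothelium, with 409 counts in Fancd2-/- and 406 in wild-type marrow. The ratio rose only slightly with transcript length. Over 4 equal groups of genes by length, the median log2 ratio went from -0.01 in the shortest to 0.02 in the longest.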

How the data were processed

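The authors sequenced poly(A)-selected RNA with a TruSeq kit as reads of 51 bases and aligned them to mm9 with Bowtie, per the labels and the series' design text; edgeR is named in the submitters' processing notes. The sources used here give no version, counter or strand setting and do not say how multiply matching reads were treated. Overlapping, antisense or near-identical genes may therefore share reads. The deposited counts are raw counts per RefSeq transcript (26005 rows). The deposited scaled table holds a score, counts brought to 1 common library total and rounded, and served as an alternative.

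For each symbol the row with the largest total over 20 libraries was kept. Marrow libraries were scaled by TMM over the pair; genes with 100 or more counts in either library were compared by ratio, with the exact conditional binomial (Clopper-Pearson) 95% interval. KSL libraries were tested with edgeR 4.0.16 (R 4.3.3; quasi-likelihood, robust, filterByExpr, 12 libraries, Benjamini-Hochberg, call at 0.05); DESeq2 1.42.0 was an alternative. KSL replicates are separate pools. KSL levels are scaled over 12 libraries, marrow levels over 2. Scripts were tested on simulated data.

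Named genes are Fancd2, the 12 in each direction by the interval bound nearest 1, the 8 in each direction among genes with 5000 or more counts, up to 4 past 1.5-fold per list and direction (the 2 most abundant members elsewhere), the Fanconi list and Spp1. Further members of the lists, and genes past 1.5-fold outside them, are named as examples chosen after their values were seen. Members and lists were chosen with earlier results of these data known. A few members of the lists are not reported here.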

Additional observations from a re-analysis of the deposited data

Results flagged for a closer look

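Col17a1, which encodes a collagen of cell adhesion sites, differed in direction between whole marrow and KSL cells. It had 110 counts in Fancd2-/- and 43 in wild-type marrow, a ratio of 2.40 (1.68 to 3.50). In KSL cells on placebo it averaged 0.385 ± 0.172 CPM in Fancd2-/- and 1.12 ± 0.305 CPM in wild-type libraries (SD, n = 3 each), a log2 change of -1.45 with an adjusted p of 0.107 (edgeR). The KSL libraries of the 2 genotypes do not overlap, but the change did not pass the threshold, and the difference between marrow and KSL cells was not tested.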

How the results depend on the processing

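The marrow counts depend on the minimum count. With a minimum of 50 counts, 27 genes were higher and 36 lower past 2-fold, and 150 were higher and 113 lower past 1.5-fold. With a minimum of 500 counts, 4 were higher and 11 lower past 2-fold, and 28 higher and 32 lower past 1.5-fold. With no minimum and 0.5 counts added, 748 were higher and 665 lower past 2-fold, and 1199 higher and 1072 lower past 1.5-fold. Other scalings moved the median of all genes by at most 0.0049 on the log2 scale, and under these alternatives no named gene past 1.5-fold changed direction. The histone list's median was 0.02 with a minimum of 500 counts, against -0.28, and that of iron handling 0.06 with no minimum, against -0.02. Leaving out members shared between lists was chosen after seeing the data. In KSL cells, the count of genes called was 1 higher and 10 lower with only the 6 placebo libraries, and 471 higher and 344 lower with DESeq2. Leaving out 1 placebo library gave 5 to 128 higher and 14 to 108 lower calls. No paired analysis was possible because genotype is constant within the pairs the study describes. Marrow has 1 library per genotype, so no variation between mice or libraries can be measured, and intervals cover counting error only.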
